A study of Mus musculus with 4 samples.

Results

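The myogenic regulatory factors are 4 genes, Myod1, Myf5, Myf6 (Mrf4) and Myog, and the peaks described here are all those listed from 100 kb upstream of the start to 100 kb past the end of each gene. Myf5 and Myf6 are neighbours on chromosome 10, so the 4 genes made 3 loci, and these held 21 of the 25775 peaks in the WT list and 6 of the 3836 peaks in the Tet2 KO list. Chromatin accessibility had been profiled by ATAC-seq, in which the transposase Tn5 cuts open DNA and marks it for sequencing. The samples were myoblasts from C57BL/6 mice, 2 WT and 2 Tet2 KO, the second from animals in which exon 3 of the DNA dioxygenase Tet2 was deleted in every cell. Satellite cells were sorted from hindlimb muscle, on a staining profile that was negative for PI, CD45, CD11b, CD31 and Sca1 and positive for CD34 and Integrin a7. They were grown for at least 3 days into MyoD+ myoblasts and used at 5000 cells per library, and by the methods the mice were males of 8 to 10 weeks, unless stated otherwise. A peak list of 1 library per genotype was used here and neither list could be tied to a replicate, so no difference between genotypes was tested and each value is that of a single list. In these bulk libraries, fewer cells with an open site and a site less open in every cell cannot be told apart.

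The myogenic regulatory factors are basic helix-loop-helix proteins that pair with E proteins and bind E boxes, the 6-base motif CANNTG, of which MyoD and myogenin prefer CAGCTG. Myf5 and MyoD set the muscle fate, myogenin turns on terminal differentiation, and Myf6 acts both early in the embryo and in mature fibres. Myod1 is known to be driven by a core enhancer far upstream and by a distal regulatory region closer to the gene, and Myf5 and Myf6 share a long upstream domain with separate enhancers for limb, trunk and head muscle. Myoblasts are known to transcribe Myf5 and Myod1 while they divide and Myog when they begin to differentiate.

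Sequences of the mm9 reference are shown for the peaks on which the results at Myod1 turn and for the start-proximal DNA of Myod1 and Myog, so that E boxes and CpG sites can be seen beside the values. Capitals mark E boxes (CANNTG) and AP-1 motifs (TGANTCA), and all sequences are on the plus strand, which is the coding strand of both genes. Peaks are named by the distance of the summit, the position with the most fragments, from the transcription start in bp, and up to 300 bases of each are printed. The stretch printed for the Myod1 peak at +4290 leaves out the first bases of that peak, which begins at 53635948. The peaks at -34944, -26140, -23109, -10473 and +4290 of Myod1 are taken from chr7:53596762-53597061, chr7:53605559-53605858, chr7:53608608-53608907, chr7:53621232-53621464 and chr7:53635984-53636240, and the 300 bases upstream of the starts from chr7:53631544-53631843 (Myod1) and chr1:136186281-136186580 (Myog).
Myod1 -34944: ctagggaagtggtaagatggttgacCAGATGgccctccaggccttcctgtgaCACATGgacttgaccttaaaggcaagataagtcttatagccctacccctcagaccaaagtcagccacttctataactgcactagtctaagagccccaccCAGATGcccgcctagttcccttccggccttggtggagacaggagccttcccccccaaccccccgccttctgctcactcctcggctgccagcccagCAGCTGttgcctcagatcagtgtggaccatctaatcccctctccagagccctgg
Myod1 -26140: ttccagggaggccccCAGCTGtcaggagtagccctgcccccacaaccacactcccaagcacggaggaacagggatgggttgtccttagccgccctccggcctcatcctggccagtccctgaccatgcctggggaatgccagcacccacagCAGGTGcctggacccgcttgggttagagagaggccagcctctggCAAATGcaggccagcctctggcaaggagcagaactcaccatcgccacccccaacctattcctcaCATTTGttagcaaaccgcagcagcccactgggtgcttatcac
Myod1 -23109: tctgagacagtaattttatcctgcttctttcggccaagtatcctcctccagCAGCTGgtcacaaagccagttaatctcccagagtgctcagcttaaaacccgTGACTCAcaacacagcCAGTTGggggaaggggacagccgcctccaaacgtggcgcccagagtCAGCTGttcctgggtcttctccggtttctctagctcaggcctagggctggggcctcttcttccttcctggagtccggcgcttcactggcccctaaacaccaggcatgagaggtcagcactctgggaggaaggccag
Myod1 -10473: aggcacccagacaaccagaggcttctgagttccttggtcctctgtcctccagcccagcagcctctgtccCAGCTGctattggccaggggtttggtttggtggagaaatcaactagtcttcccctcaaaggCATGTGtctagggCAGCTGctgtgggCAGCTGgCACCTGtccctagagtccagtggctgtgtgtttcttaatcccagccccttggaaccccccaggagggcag
Myod1 +4290: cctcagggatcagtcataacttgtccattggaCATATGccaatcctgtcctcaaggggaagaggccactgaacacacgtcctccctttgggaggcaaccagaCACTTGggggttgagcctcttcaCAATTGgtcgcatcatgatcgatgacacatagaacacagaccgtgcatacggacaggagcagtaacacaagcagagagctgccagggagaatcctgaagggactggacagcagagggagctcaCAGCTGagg
Myod1 upstream: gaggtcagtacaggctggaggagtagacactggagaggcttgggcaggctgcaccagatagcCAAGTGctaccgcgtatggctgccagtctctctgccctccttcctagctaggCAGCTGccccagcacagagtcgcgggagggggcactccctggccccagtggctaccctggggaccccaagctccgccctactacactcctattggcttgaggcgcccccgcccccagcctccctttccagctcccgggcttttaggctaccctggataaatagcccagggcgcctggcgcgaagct
Myog upstream: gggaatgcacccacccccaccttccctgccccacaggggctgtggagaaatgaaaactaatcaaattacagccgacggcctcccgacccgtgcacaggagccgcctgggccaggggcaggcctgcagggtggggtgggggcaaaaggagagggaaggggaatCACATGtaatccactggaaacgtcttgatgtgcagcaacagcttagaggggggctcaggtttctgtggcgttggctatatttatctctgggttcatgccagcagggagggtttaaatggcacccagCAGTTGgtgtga

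Each listed peak has a fold enrichment, a -log10 p and a -log10 q from the peak caller MACS2. The fold enrichment is the summit over the local background, with 1 added to each. The number of fragments at each summit was solved from these values, and its exact Poisson 95% interval covers counting error only, as do all intervals given here. The commonest background, taken as genome-wide, was 0.649 fragments for the WT library and 1.38 for the Tet2 KO library. Over the whole lists, the lowest summit held 6 fragments in WT and 7 in Tet2 KO, so weaker sites are not in the lists. MACS2 numbers its peaks along the genome and both lists skip numbers (9707 in WT, 4403 in Tet2 KO), and a skipped number is a peak that was called and is not in the list used here. Promoters of the marker genes were checked first, a promoter being 1000 bp upstream to 100 bp downstream of a start. Of 12 markers of satellite cells and myoblasts, Myod1, Des and Chrna1 had a promoter peak in each list and the other 9, Pax7 and Myf5 among them, had none in either. A promoter peak was listed at 0 of 6 leukocyte markers, 0 of 3 fibro-adipogenic markers, 0 of 3 markers of other lineages and 1 of 4 endothelial markers (Pecam1, in WT alone). Over all 22208 protein-coding genes, 26.7% had a promoter peak in WT and 6.97% in Tet2 KO, so a promoter without a listed peak was the usual state.

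Myod1, the gene of the determination factor MyoD (chromosome 7, 53631844 to 53634462, plus strand), had the most peaks of the 4 genes in both genotypes. The WT list held 12 peaks in its window and the Tet2 KO list 4, and each of the 4 overlapped a WT peak. They lay 35 kb and 26 kb upstream, at the promoter and 4 kb downstream of the start. The other 8 WT peaks had no listed Tet2 KO peak. Over all WT peaks, 14.1% overlapped a Tet2 KO peak, and over all Tet2 KO peaks, 96.8% overlapped a WT peak.

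At the Myod1 promoter, the WT peak (53631607 to 53632051) had its summit at -138 bp with 39 fragments (interval 27.7 to 53.3), 7.53-fold over background at a -log10 q of 20.2. The Tet2 KO peak (53631699 to 53631869) had 21 fragments (interval 13.0 to 32.1), 5.50-fold over background at a -log10 q of 7.31, with its summit at -74 bp. The promoter was thus listed in both genotypes, and its WT summit held more fragments than 98.4% of all WT peaks. Within the 300 bases upstream of the start, E boxes lay at -238 to -233 (CAAGTG) and at -186 to -181 (CAGCTG). The WT peak, which begins at -237, covers the second whole and the first but for its first base. The Tet2 KO peak, which begins at -145, covers neither.

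The peak with the most fragments at the locus was not the promoter but the intergenic peak at -34944 bp (53596762 to 53597256), 495 bp wide. It had 42 fragments in WT (interval 30.3 to 56.8), 10.5-fold over background at a -log10 q of 28.2, and 99.1% of all WT peaks had fewer fragments. In Tet2 KO the same site held 23 fragments (interval 14.6 to 34.5), the highest of the 6 Tet2 KO peaks at these loci. The peak at +4290 bp (53635948 to 53636240), past the end of the gene, equalled the promoter in WT with 39 fragments and had 15 in Tet2 KO (interval 8.40 to 24.7). At -26140 bp (53605559 to 53605945) the summits held 32 fragments in WT (interval 21.9 to 45.2) and 18 in Tet2 KO (interval 10.7 to 28.4).

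The window searched for the Myod1 core enhancer ran from 25000 to 18000 bp upstream of the start, because the files hold no coordinates of the element itself. It held a single WT peak, at -23109 bp (53608608 to 53608916), and no Tet2 KO peak. The WT summit there had 26 fragments (interval 17.0 to 38.1), 5.90-fold over background at a -log10 q of 11.2. Its sequence, shown above, holds 2 CAGCTG boxes, 1 further E box, 1 AP-1 motif and 8 CpG sites. The peak at -26140 bp, which was listed in both genotypes, ends 898 bp before this window begins. Whether either peak is the core enhancer was not tested. The window for the distal regulatory region, 6000 to 4000 bp upstream, held no listed peak in either genotype, and 1 skipped WT number lies between the WT peaks that flank it.

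The peak numbers bear on the Tet2 KO list at Myod1 directly. Its 4 peaks carry the consecutive numbers 6752 to 6755, and the peak before them, number 6751, ends 527 kb upstream of the first. No further peak was therefore called in that library between it and the peak at +4290 bp. Of the 8 WT peaks without a Tet2 KO peak, 7 lie in this stretch, the peak at -23109 bp among them, so for these the missing partner is a site that was not called and not one removed from the list. The remaining WT peak, at +73002 bp, lies inside the Sergef gene at the start of a U6 small nuclear RNA, and 5 skipped Tet2 KO numbers fall in the 2500 kb after the peak at +4290 bp. Of the WT numbers, 4 are skipped between the listed peaks of the Myod1 window.

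The WT peaks of Myod1 without a Tet2 KO peak had 12 to 26 fragments. Those at -92656 and -75282 bp lie in the neighbouring gene Otog, in a coding exon and an intron, with 22 and 20 fragments and fold enrichments of 9.50 and 9.72. Intergenic peaks followed at -62793 bp with 21, at -59376 bp with 17 and at -38747 bp with 23 fragments. The peak at -10473 bp was one of the weakest of the locus with 12 fragments. It had the most E boxes of the 21 peaks, 8 within 150 bp of its summit, 4 of them CAGCTG, and it was the only one without a CpG site there. The peak itself, printed above, is narrower than that window and holds 5 of the 8.

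**Figure D1:**
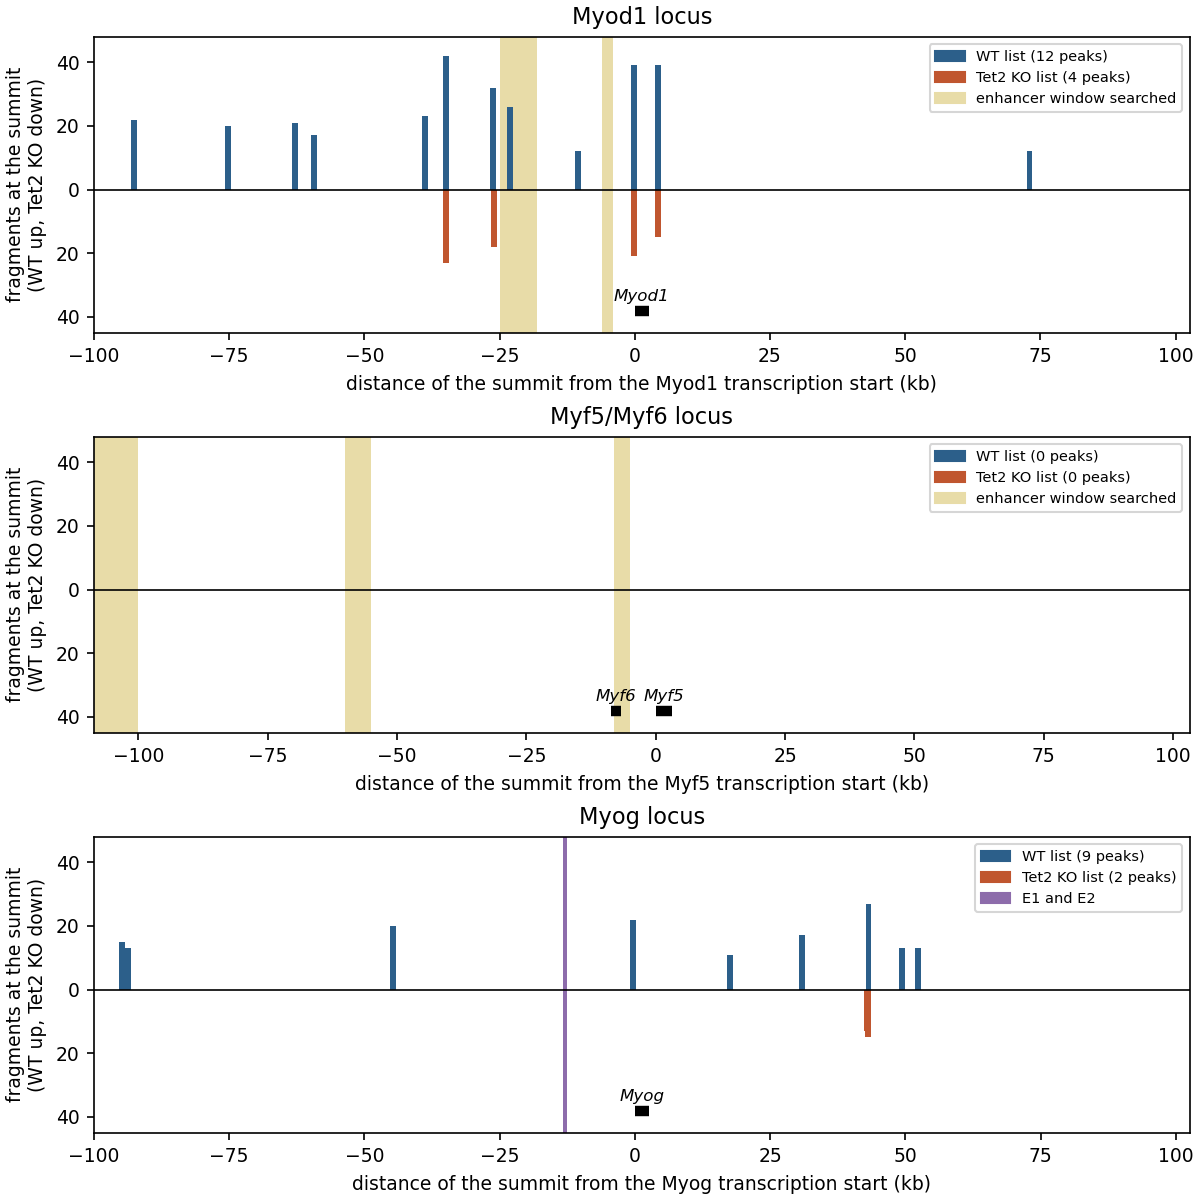
Listed peaks at the 3 loci. Each bar stands at the distance of a peak summit from the transcription start in kb (x axis) and its height is the number of fragments at the summit (y axis), WT upward in blue and Tet2 KO downward in orange. Yellow bands mark the enhancer windows searched at Myod1 and Myf5, the purple band marks E1 and E2 of Myog, and black boxes mark the genes. The 4 Tet2 KO peaks at Myod1 stand under the 4 tallest WT bars, the Myf5/Myf6 panel is empty, and the Tet2 KO pair at Myog stands 43 kb past the start.

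Myf5, the other determination gene (chromosome 10, 106919964 to 106923190, minus strand), and Myf6 (106929916 to 106931785, minus strand) had no listed peak in either genotype. The start of Myf6 lies 8595 bp upstream of the start of Myf5, with 6725 bp between the genes, and both windows together cover 212 kb. The nearest WT peaks were at 106642615 to 106642714, in intergenic sequence, with 8 fragments, and at 107052532 to 107052743, in an intron of Ptprq, with 14 fragments. The second lies 129342 bp upstream of the Myf5 start. They are 410 kb apart with a single skipped WT number between them, so at most 1 further WT peak was called at this locus. Of the 25754 intervals between neighbouring WT peaks on a chromosome, 3.90% were at least as long, and the median was 30.1 kb. In the Tet2 KO list the flanking peaks were 8884 kb apart, at the Dusp6 promoter and in an intron of Ppp1r12a, and 2 numbers are skipped between them. Of the 3815 intervals in that list, 0.446% were at least as long, and the median was 212 kb.

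The windows searched at Myf5 for the limb and hypaxial enhancer (60000 to 55000 bp upstream), for the epaxial enhancer (8000 to 5000 bp) and for a far upstream enhancer (120000 to 100000 bp) held no listed peak in either genotype. The last of these reaches past the edge of the locus. The nearest listed WT peak, in Ptprq, begins 9341 bp beyond it. A locus without a listed peak was not rare, since 18.0% of the protein-coding genes had no WT peak within 100 kb and 55.9% no Tet2 KO peak.

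Myog, the gene of the differentiation factor myogenin (chromosome 1, 136186581 to 136189124, plus strand), had 9 WT peaks and 2 Tet2 KO peaks in its window. Both Tet2 KO peaks lay under a single WT peak, at the promoter of the neighbouring gene Ppfia4, so none of the listed Tet2 KO peaks was at Myog itself. The WT peak at the Myog promoter, at -266 bp, had 22 fragments (interval 13.8 to 33.3), fewer than the 39 at the Myod1 promoter, whose interval overlaps it. The Ppfia4 peak, at +43175 bp (136229398 to 136229838), had the most fragments of the locus, 27 in WT (interval 17.8 to 39.3). In Tet2 KO it was listed as a pair, with 13 fragments at +42962 bp and 15 at +43143 bp.

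The 300 bases upstream of the Myog start hold no CAGCTG. Their E boxes are CACATG at -138 to -133 and CAGTTG at -12 to -7, and the WT peak, which ends 80 bp before the start, covers the first of them. A CAGCTG does lie within 150 bp of its summit, further upstream. The other 7 WT peaks had 11 to 20 fragments. Those at -94724 and -93703 bp lie in introns of Mybph, which encodes a myosin-binding protein and is a muscle gene itself, with 15 and 13 fragments. The peak at -44767 bp, 506 bp wide and intergenic, had 20 fragments, a fold enrichment of 8.27 and 4 CAGCTG boxes. Downstream, the peaks at +17584 and +30851 bp lie in introns of Ppfia4, with 11 and 17 fragments and 3 CAGCTG boxes each. The last pair, at +49336 and +52405 bp, had 13 fragments each.

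E1 and E2, the upstream fragments that the study cloned as enhancers, were placed by matching the cloning primers to the reference. They lie at 136173648 to 136173985 and at 136173233 to 136173663, in the 44.0 kb between the peak at -44767 bp and the promoter peak. No peak of either list touched them. One WT number and one Tet2 KO number are skipped around them, the second in a stretch of 234 kb that also holds 6 WT peaks of the locus. At most 1 of the called Tet2 KO peaks can thus be missing from the list over both fragments and those 6 sites together, the Myog promoter among the 6.

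Against all 22208 protein-coding genes, the windows of Myod1 and Myog were rich in peaks and those of Myf5 and Myf6 were not. The median gene had 4 WT peaks and 0 Tet2 KO peaks. For Myod1, 94.5% of the genes had fewer than its 12 WT peaks and 97.2% fewer than its 4 Tet2 KO peaks. For Myog, 84.6% had fewer than its 9 WT peaks and 80.8% fewer than its 2 Tet2 KO peaks. Those 2 lie under a single WT peak at the Ppfia4 promoter, and merging peaks within 500 bp left 1. At 1 peak, the genes with fewer are the 55.9% that have none. Of the peaks in the Myog window, only 2 WT and 0 Tet2 KO peaks were nearest to the start of Myog itself. The gene most like Myod1 in peak number and summed summit fragments of the 2 lists was Gpr4, with 12 WT and 4 Tet2 KO peaks (distance 0.056 over 4 values on the log2(x + 1) scale). Fgf22 and Rnf126 were the most like Myog, with 9 WT and 2 Tet2 KO peaks each (distance 0.049). Myf5 and Myf6 shared their empty pattern with 3969 genes and have no closest one, and the first of these by name are 1110012L19Rik and 1110021L09Rik.

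**Figure D2:**
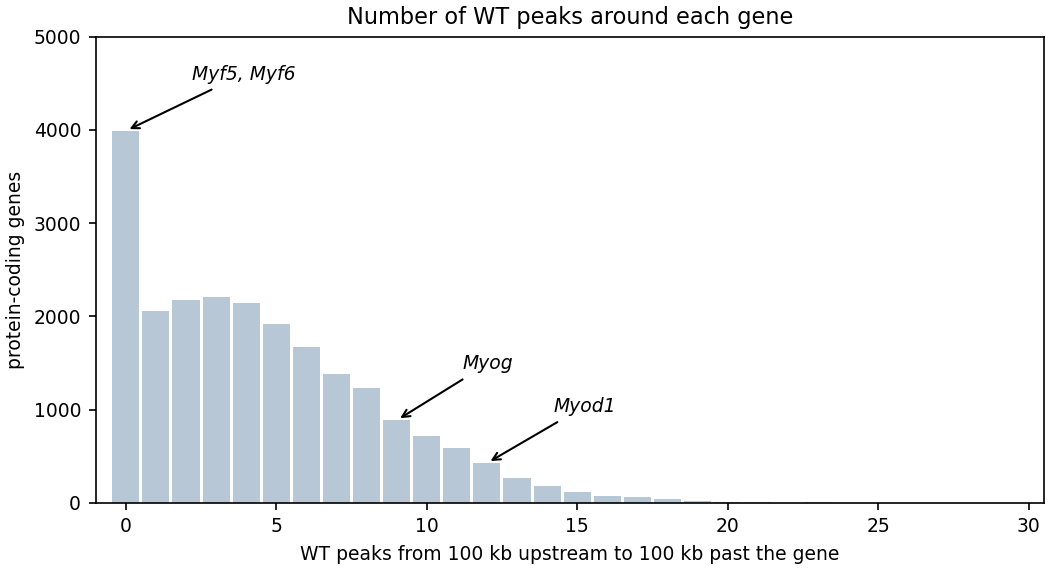
Number of WT peaks from 100 kb upstream to 100 kb past each of 22208 protein-coding genes. The x axis is the number of WT peaks, the y axis the number of genes, and arrows mark the bars that hold the 4 genes. Myf5 and Myf6 sit in the bar at 0, which is the tallest with 3990 genes, Myog at 9 and Myod1 at 12. The axis ends at 30, and 2 genes lie beyond it.

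Across the 3 loci, the WT peaks that were also listed in Tet2 KO were the 5 with the most fragments in WT. These were 42, 39, 39 and 32 at Myod1 and 27 at Ppfia4, and the highest among the other 16 was 26, in the core enhancer window. A Tet2 KO partner was listed for 5 of the 21 (23.8%, Wilson 95% interval 10.6 to 45.1%, counting error only), beside 14.1% of all WT peaks, so the interval includes the background. Among all WT peaks this share rose with the fragments at the summit. It was 1.19% at 10 to 14 fragments, 5.60% at 15 to 19, 23.6% at 20 to 26, 57.7% at 27 to 34 and 87.4% at 35 to 44. The edge at 27 was set after the values were seen, at the lowest count of a member peak with a partner, so the member peaks on each side of it are a description. At this limit, 66.4% of the 2984 WT peaks at or above it and 7.24% of those below it had a Tet2 KO peak.

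**Figure D3:**
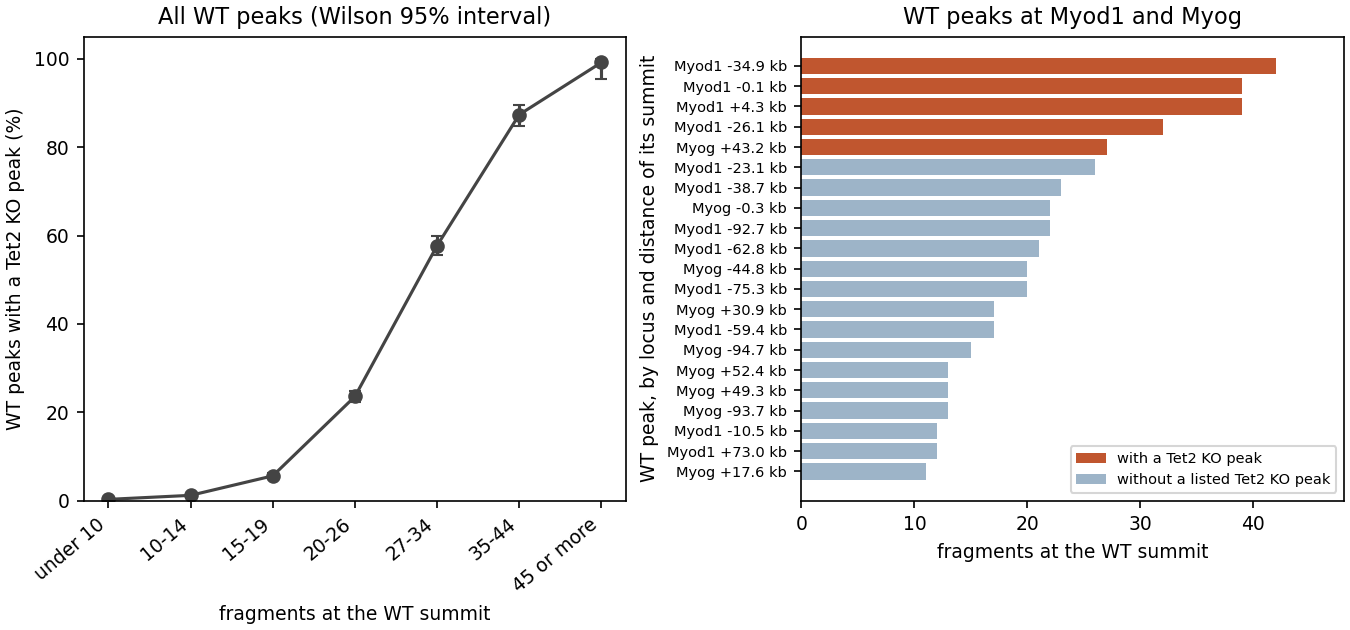
Fragments at the WT summit and presence of a Tet2 KO peak. On the left, the share of all WT peaks with an overlapping Tet2 KO peak (y axis, percent) is plotted by the number of fragments at the WT summit (x axis), with Wilson 95% intervals, and it climbs from 1.19% at 10 to 14 fragments to 87.4% at 35 to 44. On the right, each bar is 1 of the 21 WT peaks of the Myod1 and Myog loci, its length the fragments at its summit (x axis), with orange for the 5 with a Tet2 KO peak, which are the longest bars.

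To compare the shared summits between libraries of unequal background, the fragments were divided by the genome-wide background of the library. At -34944 bp of Myod1 the scaled summit was 64.7 in WT and 16.6 in Tet2 KO, a Tet2 KO to WT ratio of 0.257 (exact interval 0.147 to 0.437). At the Myod1 promoter it was 60.1 and 15.2, a ratio of 0.253 (0.141 to 0.440), and at -26140 bp it was 49.3 and 13.0, a ratio of 0.264 (0.139 to 0.484). The Ppfia4 peak gave 41.6 and 10.8, a ratio of 0.261 (0.129 to 0.507). On this scale these 4 lie near the median of all 3633 shared WT peaks, whose median ratio was 0.261 and whose quartiles were 0.222 and 0.313. The peak at +4290 bp of Myod1 was lower, with 60.1 and 10.8, a ratio of 0.180 (0.0924 to 0.335), and 6.17% of all shared WT peaks had a smaller one. Beside shared peaks with similar WT fragments, whose median ratios were 0.234 to 0.254 for the 5 peaks, 12.5% were smaller than at +4290 bp, and 54.2 to 67.7% were smaller than at the other 4. The interval at +4290 bp includes the median of all. Without the scaling, the ratio of fragments was 0.385 there and 0.538 to 0.563 at the other 4, beside a median of 0.556. The ratio of fold enrichments, which rest on the local background, gave another order. It was 0.638 at -34944 bp, 0.739 at -26140 bp and 0.730 at the promoter of Myod1, and 0.471 at Ppfia4. At +4290 bp it was 0.521, and the median of all shared WT peaks was 0.532. Where the peaks lie beside the median thus depends on the measure. The ratios say nothing of the peaks that were not listed in Tet2 KO.

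**Figure D4:**
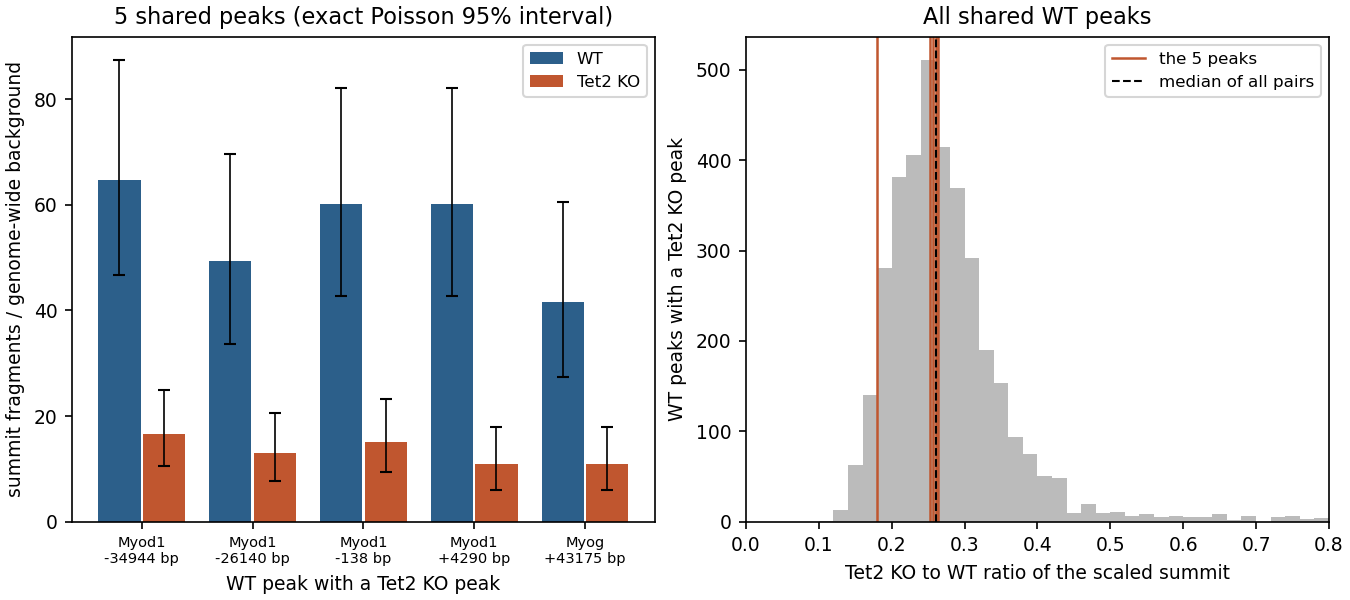
Summits listed in both genotypes. On the left, bars give the summit fragments divided by the genome-wide background of the library (y axis) for the 5 WT peaks with a Tet2 KO peak (x axis, by distance from the Myod1 or Myog start), with exact Poisson 95% intervals, and each Tet2 KO bar is below its WT bar. On the right, the Tet2 KO to WT ratio of this value (x axis) is shown for all 3633 shared WT peaks (y axis, number of peaks). The orange lines mark the 5 peaks, of which 4 lie beside the dashed median of 0.261 and the peak at +4290 bp lies at 0.180, and 32 peaks with a ratio of 0.8 or more are off the axis.

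The WT peaks of Myod1 and Myog held the E box CAGCTG more often than WT peaks did as a whole. Searched on both strands within 150 bp of the summit, it was found in 17 of the 21 peaks (81.0%, interval 60.0 to 92.3%), 9 of 12 at Myod1 and 8 of 9 at Myog, beside 39.2% of all WT peaks. Any E box (CANNTG, which includes CAGCTG) was found in 20 of 21, beside 81.8%, and CAGGTG or its complement CACCTG in 6, beside 16.0%. All 5 shared peaks had a CAGCTG around the WT summit, and so did 12 of the 16 without a listed Tet2 KO peak. Around the Tet2 KO summits, there was 0 at -26065 bp of Myod1 and 1 at each of the others. A motif within 150 bp of a summit can lie outside the listed peak. The AP-1 motif TGANTCA was found in 7 of 21, beside 37.9%, and the TEAD motif GGAATG in 7, beside 22.4%. A MEF2 motif and the MEF3 motif TCAGGTT were found in 1 peak each, beside 1.36% and 3.83% of all WT peaks. Only the interval of CAGCTG lies wholly above the share of all WT peaks among these 7 motifs, neighbouring peaks share their locus, and no test was made.

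**Figure D5:**
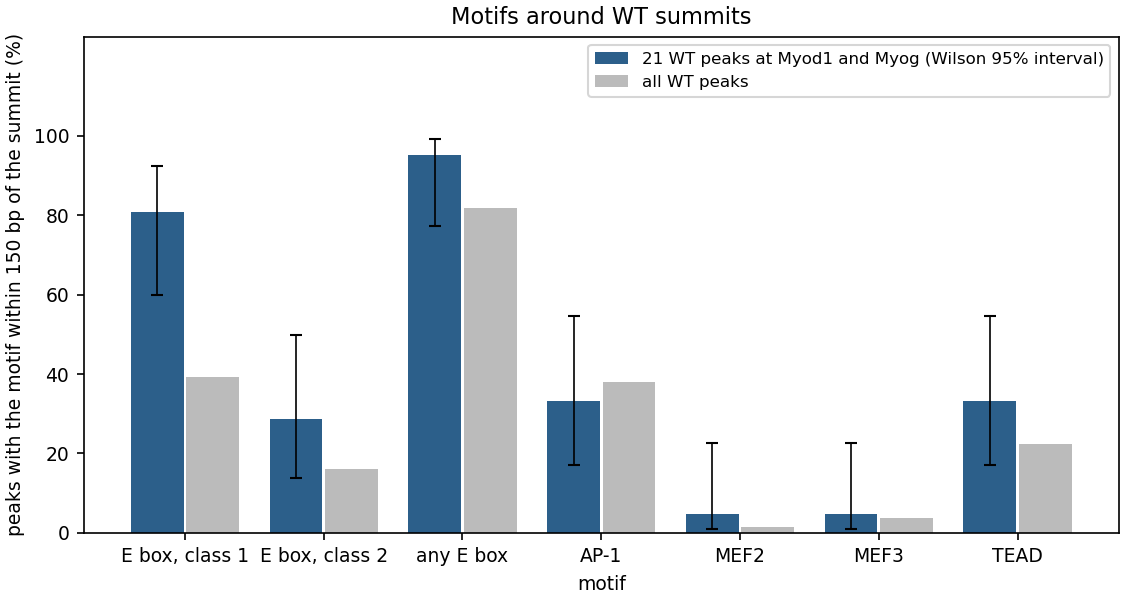
Motifs around the WT summits at Myod1 and Myog. Bars give the share of peaks with the motif within 150 bp of the summit (y axis, percent) for the 21 WT peaks of the loci in blue, with Wilson 95% intervals, and for all WT peaks in grey. E box class 1 is CAGCTG, class 2 is CAGGTG or CACCTG, and any E box is CANNTG. The blue bar of class 1 stands at 81.0% beside a grey bar of 39.2%, and the intervals of AP-1, MEF2 and TEAD include the grey bars.

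CpG sites, the substrate of DNA methylation, were counted in the same windows. The median was 5 for the 21 peaks and 5 for all WT peaks, with 0 to 12 among the 21, the highest at the Myod1 promoter. In the 16 peaks with both a CAGCTG and a CpG, 0 to 72 bases separated the nearest pair. The number was 8 in the core enhancer window, 14 at the Myod1 promoter, 35 at the Myog promoter and 72 at +4290 bp of Myod1. A CpG lay within 10 bases of a CAGCTG in 6 of 17 peaks with the motif (35.3%, interval 17.3 to 58.7%), beside 40.2% of all WT peaks with it. Of the shared peaks 0 of 5 had such a pair and of the others 6 of 12, while over the whole lists the shares were 42.2% with and 39.9% without a Tet2 KO peak. From 500 bp upstream to 100 bp downstream of the starts, the reference holds 17 CpG sites at Myod1 and 13 at Myog, the promoters with a WT peak, and 10 each at Myf5 and Myf6, the promoters without one. The methylation of these sites is not analysed here.

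Genes that act with the factors were read in the same way, each list with its promoter peaks beside the 26.7% and 6.97% of all genes. Of 6 partners, Tcf3, which encodes E proteins, and Mef2a had one in WT, and none had one in Tet2 KO. Among 10 inhibitors, Id1, Id2, Id3 and Snai1 had one in WT, and Id2 and Id3, which bind E proteins away from the myogenic factors, also in Tet2 KO. Among 20 targets 8 had one in WT, and Des, Chrna1 and Chrng, genes of desmin and of acetylcholine receptor subunits, also in Tet2 KO. Myod1 had 4 Tet2 KO peaks in its window where Pax7 had 1 and Pax3 had 0, beside 8 and 4 in WT.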

How the data were processed

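ATAC-seq libraries of 2 WT and 2 Tet2 KO myoblast samples had been sequenced with 150 bp paired-end reads. The authors trimmed these to 36 bp, used Bowtie2 for alignment to mm9, kept a mapping quality of 30 or more, removed duplicates and called peaks per sample with MACS2 at a q of 0.01. The deposited tables are 1 peak list per genotype, each of a single library, named for the genotype and matching the totals of the study's chart. Their fold column is a ratio of summit to local background, with 1 added to each, by the authors' peak caller. The deposited -log10 p and -log10 q are those of the summit. The last deposited column is the position of the summit in the peak. The peak caller's score column was not used. How peaks were removed from the lists before deposition is not given in the sources used here.

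Genes, starts and sequence came from GENCODE M1 and NCBIM37, the sequence of mm9. The summit fragments follow from fold enrichment and -log10 p through the Poisson formula of MACS2, with a tolerance of 0.001, for all 25775 WT and 3836 Tet2 KO peaks. For 55 WT and 1 Tet2 KO peaks several solutions fitted, and the smallest with a background at or above the commonest was taken. The lists show no other depth, and the library totals are unknown. Peaks overlapped at 1 shared bp, features were taken at the peak centre, and shares have Wilson 95% intervals. The calculations were tested on simulated data. The 4 genes, the enhancer windows, the marker and pathway lists and the rule for similar genes were chosen with earlier results of these data known. The named genes are the 4, those with one of these peaks at the promoter, the 2 most like each, and the lists, and the results of some of these are not reported here. Genes whose body holds a peak or that flank Myf5 were named after the values were seen. Alternatives were limits on -log10 q and fold enrichment, window and motif widths, overlap rules, merged peaks and assignment to the nearest start. The software was Python 3.11.15 with scipy 1.17.1, pandas 2.3.3, matplotlib 3.10.9 and numpy 2.4.6. The study's RNA, methylation and signal track data are not used here.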

Additional observations from a re-analysis of the deposited data

How the results depend on the processing

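No paired analysis was possible because neither list carries a replicate number, and no replicate could be left out. Requiring a q of 0.01 or lower in both lists, which is a -log10 q of 2, and removing promoters of other genes were chosen after seeing the data. The 21 WT peaks became 11 when a -log10 q of 10 was required, 32 with loci of 200 kb on either side and 11 when the nearest start had to be that of a member. The 6 Tet2 KO peaks became 3 when a -log10 q of 5 was required, 1 at a -log10 q of 10, and 3 at a fold enrichment of 5. The percentage of WT peaks that had a Tet2 KO peak, 23.8% as listed, was 9.09% at a -log10 q of 10 and 9.52% when the overlap had to span 50% of both peaks, but 36.4% with peaks assigned to the nearest start and 35.7% with loci of 50 kb on either side. CAGCTG, found in 81.0% as listed, was found in 100% (11 of 11 peaks) at a -log10 q of 10 and in 59.4% with 200 kb on either side. The shares over all WT peaks, 14.1% with a Tet2 KO peak and 39.2% with CAGCTG, are those of the lists as they stand. Limits on -log10 q and the overlap rule can change these too, and their values at those settings are not given here. Whether the loci stand apart there cannot be read from these shares. Stricter limits remove peaks and wider loci add them by construction, and for the rest the cause was not tested. Of 54 alternative counts at single loci, 13 moved past 1.5 times. All settings filter the same 2 lists, of which that of WT is the longer (25775 peaks against 3836), so they are not separate evidence. In all 30 combinations of locus and setting the WT list had at least as many peaks as the Tet2 KO list, which includes the empty Myf5/Myf6 locus. That locus gained 2 WT peaks with 200 kb on either side. With peaks assigned to the nearest start, Myog had 2 WT peaks and 0 Tet2 KO peaks. Depth limits the reading of absent peaks, since the weakest summits in the whole lists hold 6 and 7 fragments. At these loci the weakest Tet2 KO peak held 13 fragments at a -log10 q of 2.66, beside the limit of 2. Sites there with fewer fragments may therefore have gone unlisted in Tet2 KO.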
